A study of Mus musculus with 13 samples.

Results

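The genes described here are 32 genes of glucose uptake, glycolysis, lactate and pyruvate handling and the cellular response to low oxygen, chosen by symbol from the 52636 genes listed for each mouse. All 32 symbols were found. They map to 33 Ensembl identifiers because Aldoa has an additional one (ENSMUSG00000114515), which lies beside the main gene at a mean nRPKM of 0.405 and is left out of the counts below. All 32 genes also passed the expression filter that left 17086 genes for testing, so none dropped out through low counts.

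RNA had been sequenced from brain-resident myeloid cells (CD11b+CD45+Ccr2-Ly6g-) that were sorted by FACS from cortex plus hippocampus at 14 to 15 months of age. There were 7 PS2APP;Trem2wt mice, 2 of them males, and 6 PS2APP;Trem2ko mice, 1 of them a male. The sort takes in microglia together with a few perivascular macrophages. Mice of both genotypes carried the PS2APP transgenes, which encode mutant human presenilin 2 and amyloid precursor protein and lead to β-amyloid plaques. PS2APP;Trem2ko mice also lacked Trem2 through a null allele made on the C57BL/6N background and crossed into the C57BL/6J line, and litters came from parents heterozygous for that allele. No nontransgenic mice were analysed here, so no value here tells how a gene responds to amyloid itself. Each mouse is 1 replicate, and p-values measure the spread between mice. Mice are named by a number within their genotype that only follows the order of the records and pairs no mice.

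Glycolysis splits glucose into pyruvate in the cytosol, and lactate dehydrogenase and the monocarboxylate carriers let a cell discard pyruvate as lactate when its mitochondria do not burn it. Hypoxia-inducible factor (HIF) pairs an oxygen-controlled α subunit with a constant partner and turns on many of these same genes. At normal oxygen, prolyl hydroxylases encoded by the Egln genes mark the α subunit for destruction, and Egln3 is itself a well-known HIF target. Microglia and other macrophages raise glycolysis when they are activated, and Trem2, a lipid-sensing receptor of microglia, has been linked to mTOR signaling and energy metabolism.

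The targeted gene was checked first. Trem2 (ENSMUSG00000023992) ranged from 818 to 1244 nRPKM (median 1016) in PS2APP;Trem2wt mice and from 0.393 to 2.29 nRPKM (median 0.629) in PS2APP;Trem2ko mice. Here nRPKM is a level per length of gene and per number of reads, adjusted by a size factor, and it allows levels of different genes to be set side by side. The labelled cell type was also checked. The summed nRPKM of 10 microglial markers (P2ry12, Tmem119, Cx3cr1, Csf1r and others) was 13353 to 16317 in PS2APP;Trem2wt mice and 13627 to 15563 in PS2APP;Trem2ko mice. The summed level of 7 border macrophage markers was 11.0 to 47.9 over the 13 mice, that of 5 monocyte markers 2.41 to 21.6, that of 6 neuron markers 3.95 to 11.9 and that of 5 oligodendrocyte markers 22.4 to 38.7. That of 6 astrocyte markers was 56.3 to 69.9 (median 62.9) in PS2APP;Trem2wt and 59.95 to 76.1 (median 73.6) in PS2APP;Trem2ko mice, of which 4 lay over every PS2APP;Trem2wt mouse. That of 6 neutrophil markers was 8.82 to 168 in PS2APP;Trem2wt mice, highest in mouse 2, and 0.143 to 25.4 in PS2APP;Trem2ko mice. Of the microglial markers 1, Cx3cr1, was called lower in PS2APP;Trem2ko mice by the test used below, and no marker of the other cell types was called. Total counts per mouse were 26120961 to 114857155 in PS2APP;Trem2wt and 41567025 to 120569609 in PS2APP;Trem2ko mice. Apart from mice 3 and 7, the PS2APP;Trem2wt mice had up to 40868927 counts, fewer than every PS2APP;Trem2ko mouse. The lowest count of any of the 32 genes in any mouse was 12, for Pgam1.

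Of the 32 genes, Egln3 fell in PS2APP;Trem2ko microglia and none rose (edgeR quasi-likelihood test, threshold at an adjusted p of 0.05, Benjamini-Hochberg over 17086 genes). The same threshold called 1.53% of all genes tested lower and 0.503% higher. DESeq2 called 3 of the 32 lower (Egln3, Hk1 and Slc16a1) and 1 higher (Pfkfb3), beside 526 lower and 325 higher of all 17086 genes. With an unadjusted p up to 0.05, 5 of the 32 genes were lower (Egln3, Hk1, Slc16a1, Pkm and Gpi1), against 7.56% of all genes tested, and 2 were higher (Pfkfb3 and Pfkm), against 7.29%. The log2 fold change, PS2APP;Trem2ko against PS2APP;Trem2wt, was negative for 22 of the 32 genes with a median of -0.12, beside 49.3% negative and a median of 0.00389 over all genes tested. Without PS2APP;Trem2wt mouse 3, which stands apart for these genes as described further on, 18 of 32 were negative with a median of -0.05, and Egln3 remained the gene called. The normalized counts of the genotypes overlapped for every one of the 32 genes, while without overlap were 1.22% of all genes tested with PS2APP;Trem2ko lower and 1.64% in either direction. Because RNA was measured in bulk, fewer cells of a kind and less RNA per cell cannot be told apart in any of these differences.

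**Figure D1:**
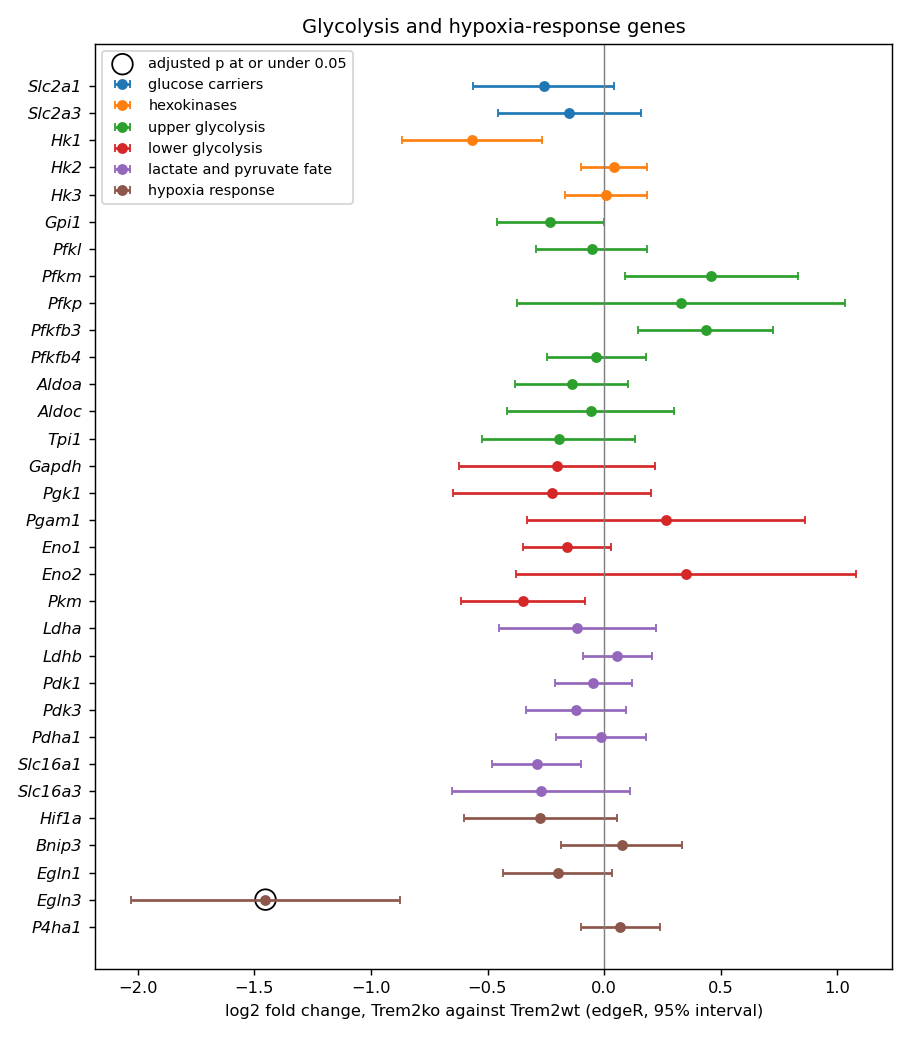
Log2 fold change of each of the 32 genes, PS2APP;Trem2ko (6 mice) against PS2APP;Trem2wt (7 mice), with its 95% interval from edgeR, coloured by role. Egln3, ringed, sits at -1.45 and is the gene past the threshold, while all others lie between -0.57 (Hk1) and 0.46 (Pfkm).

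Egln3 (ENSMUSG00000035105, GRCm38 chromosome 12, 54178981 to 54203860, minus strand) encodes the prolyl hydroxylase PHD3. Its level was 2.25 to 8.21 nRPKM (median 4.35) in PS2APP;Trem2wt mice and 1.0 to 2.70 nRPKM (median 1.55) in PS2APP;Trem2ko mice. 5 of 6 PS2APP;Trem2ko mice lay under every PS2APP;Trem2wt mouse, and 6 of 7 PS2APP;Trem2wt mice lay over every PS2APP;Trem2ko mouse, with the overlap made by PS2APP;Trem2wt mouse 6 (2.25 nRPKM) and PS2APP;Trem2ko mouse 2 (2.70 nRPKM). The log2 fold change was -1.45 ± 0.27 (SE, n = 7 and 6), which is 0.365 times the PS2APP;Trem2wt level (edgeR, adjusted p = 0.00992). The call held in all 13 fits that left out 1 mouse (-1.64 to -1.25) and in the 10 fits with other tools, scalings, filters, units or mice (-1.52 to -1.02, adjusted p of 3.72e-06 to 0.0495). At least 247 counts stood behind the value in each mouse.

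None of the other 4 hypoxia-response genes passed the test. Egln1, which encodes PHD2, the main oxygen sensor of most cells, was 5.01 to 7.01 nRPKM (median 5.82) in PS2APP;Trem2wt mice and 4.11 to 6.17 nRPKM (median 5.23) in PS2APP;Trem2ko mice, with a log2 fold change of -0.20 ± 0.11 (SE; edgeR, adjusted p = 0.43). The groups overlapped widely. Egln3 therefore made up a different part of the summed level of both hydroxylase genes in each genotype, a mean of 42.0% (SD 7.5, n = 7) with Trem2 and of 23.8% (SD 4.3, n = 6) without it, a difference of -18.2 percentage points (two-sided exact permutation test over 1716 splits, p = 0.00117, adjusted p = 0.0117 over 10 shares compared). Single mice were at 31.0% to 53.9% and at 19.6% to 30.4%, so the genotypes did not overlap. The share uses the same Egln3 values as the gene test above and is no separate evidence of the fall.

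Hif1a, the oxygen-controlled α subunit, came second of the 32 genes by listed level, an order that shared sequence leaves uncertain as described further on. It was at 68.3 to 129 nRPKM (median 77.9) in PS2APP;Trem2wt mice and 49.8 to 91.8 nRPKM (median 67.4) in PS2APP;Trem2ko mice. Its log2 fold change was -0.27 ± 0.15 (SE; edgeR, adjusted p = 0.44), and -0.14 without PS2APP;Trem2wt mouse 3, which held the value of 129. Bnip3, a mitophagy receptor induced by HIF, had a median of 2.62 nRPKM in PS2APP;Trem2wt and 2.60 nRPKM in PS2APP;Trem2ko mice (log2 fold change 0.08). P4ha1, the catalytic subunit of collagen prolyl hydroxylase, had medians of 73.8 and 74.9 nRPKM (log2 fold change 0.07). Both are known HIF targets. Their 95% intervals for the log2 fold change ran from -0.18 to 0.33 and from -0.10 to 0.24, and that of Egln3 from -2.03 to -0.88. Bnip3 shares much of its transcript sequence with other genes, as described further on. Whether HIF activity differed between the genotypes was not tested.

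**Figure D2:**
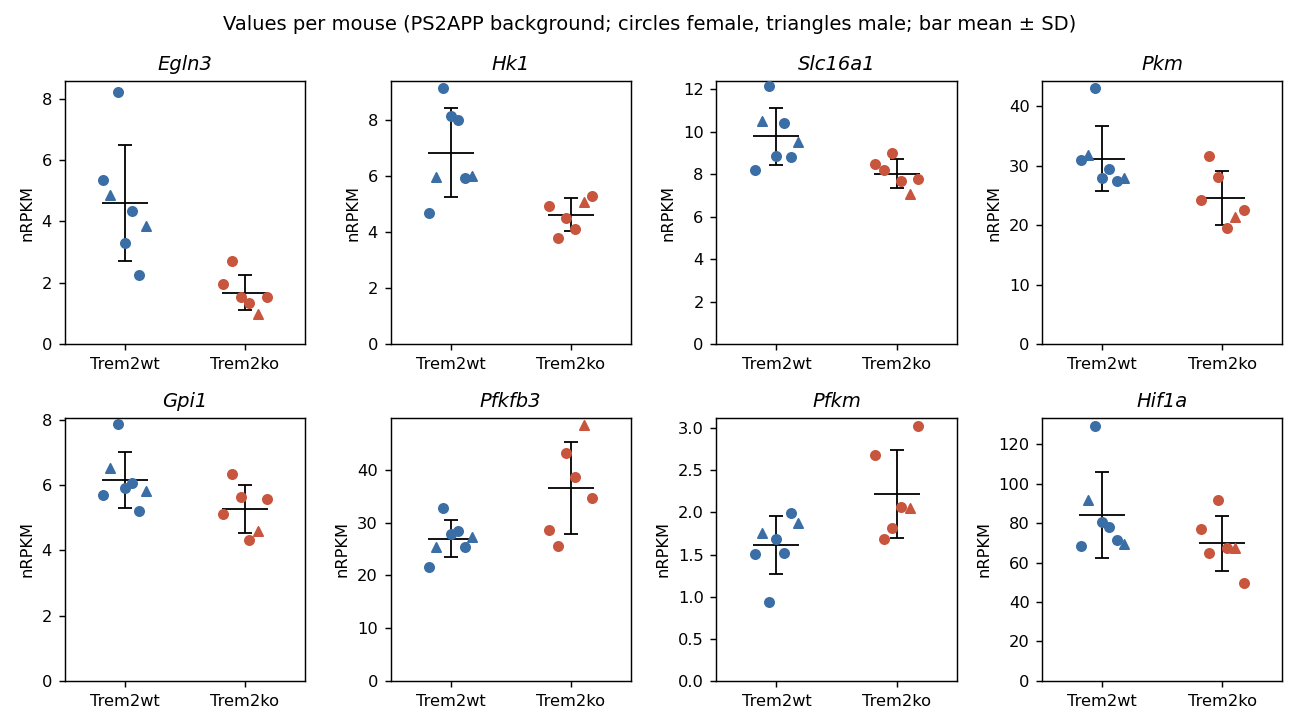
nRPKM of 8 of the genes in each mouse (circles females, triangles males), with the mean ± SD of each genotype. Egln3 has 5 of 6 PS2APP;Trem2ko mice under all PS2APP;Trem2wt mice, whereas the other 7 genes overlap more. The highest PS2APP;Trem2wt point is the same mouse, number 3, for every gene shown, Egln3 among them, except Pfkm.

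Both glucose carriers overlapped between genotypes. Slc2a1, which encodes GLUT1, the basal carrier of most cells, was 23.9 to 42.0 nRPKM (median 26.4) in PS2APP;Trem2wt and 19.5 to 33.2 nRPKM (median 22.4) in PS2APP;Trem2ko mice, with a log2 fold change of -0.26 ± 0.14 (SE; edgeR, adjusted p = 0.42). Without PS2APP;Trem2wt mouse 3, at 42.0 nRPKM, it was -0.15. Slc2a3, which encodes the high-affinity carrier GLUT3, was far lower, 1.70 to 3.07 and 1.94 to 2.86 nRPKM (log2 fold change -0.15 ± 0.14). Its highest value came from PS2APP;Trem2wt mouse 2 (3.07 nRPKM), which also had the most neutrophil marker RNA. PS2APP;Trem2wt mouse 7, nearly as high (3.05 nRPKM), ranked 10 of 13 for neutrophil markers. PS2APP;Trem2wt mice 6 and 1, which ranked 2 and 3 for them, had 2.32 and 2.19 nRPKM of Slc2a3. The part of neutrophils in the Slc2a3 level was not tested. Slc2a1 made up 91.6% ± 1.8 and 91.0% ± 0.7 (SD) of the summed level of both carriers.

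Hexokinases trap glucose in the cell as its 6-phosphate, and these cells held mostly the transcripts of Hk2 and Hk3. Hk3 made up 49.3% ± 3.6 of the summed hexokinase level in PS2APP;Trem2wt and 50.9% ± 1.4 (SD) in PS2APP;Trem2ko mice, and Hk2 39.0% ± 4.8 and 40.9% ± 2.4. Hk1, the isozyme typical of neurons and red blood cells, made up 11.7% ± 2.2 and 8.16% ± 1.09, a share that was not tested. Its level was 4.67 to 9.11 nRPKM (median 5.99) in PS2APP;Trem2wt mice and 3.79 to 5.29 nRPKM (median 4.72) in PS2APP;Trem2ko mice. 6 of 7 PS2APP;Trem2wt mice lay over every PS2APP;Trem2ko mouse, the exception being PS2APP;Trem2wt mouse 1. The log2 fold change of Hk1 was -0.57 ± 0.14 (SE; edgeR, adjusted p = 0.051), just outside the threshold. It passed without PS2APP;Trem2wt mouse 1 (-0.64, adjusted p = 0.014), without PS2APP;Trem2wt mouse 7 (-0.60, adjusted p = 0.0498) and with DESeq2 (-0.56, adjusted p = 0.00449), and over the other fits the adjusted p was up to 0.103. The summed markers of neurons, which also express Hk1, were 3.96 to 11.9 nRPKM (median 5.91) in PS2APP;Trem2wt mice. In PS2APP;Trem2ko mice they were 3.95 to 11.9 nRPKM (median 8.30). The summed red blood cell markers had medians of 1.37 and 1.43 nRPKM. The part of neuronal or red blood cell RNA in the Hk1 level was not tested. Hk2 (medians of 22.1 and 23.0 nRPKM) and Hk3 (30.4 and 28.6 nRPKM) had log2 fold changes of 0.04 and 0.01, with 95% intervals of -0.10 to 0.18 and -0.17 to 0.19.

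In the upper part of the pathway, 9 genes were measured and none passed the threshold. Phosphofructokinase commits sugar to glycolysis, and its liver-type subunit Pfkl held 94.2% ± 1.0 (SD) of the summed level of the 3 subunit genes in PS2APP;Trem2wt and 92.4% ± 1.2 in PS2APP;Trem2ko mice. The Pfkl share was not tested, only that of Pfkp. The muscle-type subunit Pfkm was at 0.940 to 1.99 nRPKM (median 1.68) in PS2APP;Trem2wt and 1.68 to 3.02 nRPKM (median 2.06) in PS2APP;Trem2ko mice. 4 of 6 PS2APP;Trem2ko mice lay over every PS2APP;Trem2wt mouse, and the log2 fold change of 0.46 ± 0.18 (SE) did not pass (edgeR, adjusted p = 0.21). Pfkp, the platelet-type subunit, varied most of the 3 from mouse to mouse, from 0.814 to 2.45 and from 0.817 to 3.12 nRPKM, and its interval ran from -0.37 to 1.03.

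Pfkfb3 and Pfkfb4 make fructose 2,6-bisphosphate, the strongest activator of phosphofructokinase, and Pfkfb3 has the higher kinase activity of the pair. Pfkfb3 was 21.6 to 32.9 nRPKM (median 27.3) in PS2APP;Trem2wt mice and 25.6 to 48.6 nRPKM (median 36.6) in PS2APP;Trem2ko mice, so 4 of 6 PS2APP;Trem2ko mice lay over every PS2APP;Trem2wt mouse. Its log2 fold change was 0.44 ± 0.14 (SE; edgeR, adjusted p = 0.13). It passed with DESeq2 (adjusted p = 0.033) and without PS2APP;Trem2ko mouse 2 (adjusted p = 0.047). Pfkfb4 had medians of 25.8 and 26.5 nRPKM (log2 fold change -0.03). Pfkfb3 accordingly made up 50.6% ± 2.9 of the summed level of both in PS2APP;Trem2wt and 58.2% ± 4.3 (SD) in PS2APP;Trem2ko mice, a difference of 7.65 percentage points (two-sided exact permutation test, p = 0.00699, adjusted p = 0.0350 over 10 shares). Single mice were at 47.3% to 56.1% and at 50.8% to 61.6%, so the genotypes overlapped. This share was past the threshold in 4 of the 13 comparisons that left out 1 mouse. It was not past it without PS2APP;Trem2wt mouse 1, 4, 5, 6 or 7 or PS2APP;Trem2ko mouse 3, 4, 5 or 6, where the difference stayed between 6.98 and 7.56 percentage points (exact permutation test, adjusted p of up to 0.0649).

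Among the other upper steps, Gpi1, which turns glucose 6-phosphate into fructose 6-phosphate, was 5.22 to 7.88 and 4.32 to 6.32 nRPKM (log2 fold change -0.23 ± 0.11; edgeR, adjusted p = 0.33), and -0.16 without PS2APP;Trem2wt mouse 3. Aldoa came first of the 32 genes by listed level, an order that shared sequence leaves uncertain as described further on. It was at 108 to 161 nRPKM in PS2APP;Trem2wt and 86.4 to 137 nRPKM in PS2APP;Trem2ko mice (log2 fold change -0.14). It made up 91.9% ± 1.5 and 91.4% ± 1.3 (SD) of the summed level with Aldoc, the brain-type aldolase known from astrocytes, whose log2 fold change was -0.06 (0.01 without PS2APP;Trem2wt mouse 3 and 0.03 without PS2APP;Trem2ko mouse 4). The part of astrocyte RNA in the Aldoc level was not tested, and the summed astrocyte markers had the higher median in PS2APP;Trem2ko mice, as given above. Tpi1, which interconverts the triose phosphates, had medians of 53.9 and 47.3 nRPKM (log2 fold change -0.20), and Pfkl of 45.5 and 46.0 nRPKM (-0.05, and 0.03 without PS2APP;Trem2wt mouse 3).

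**Figure D3:**
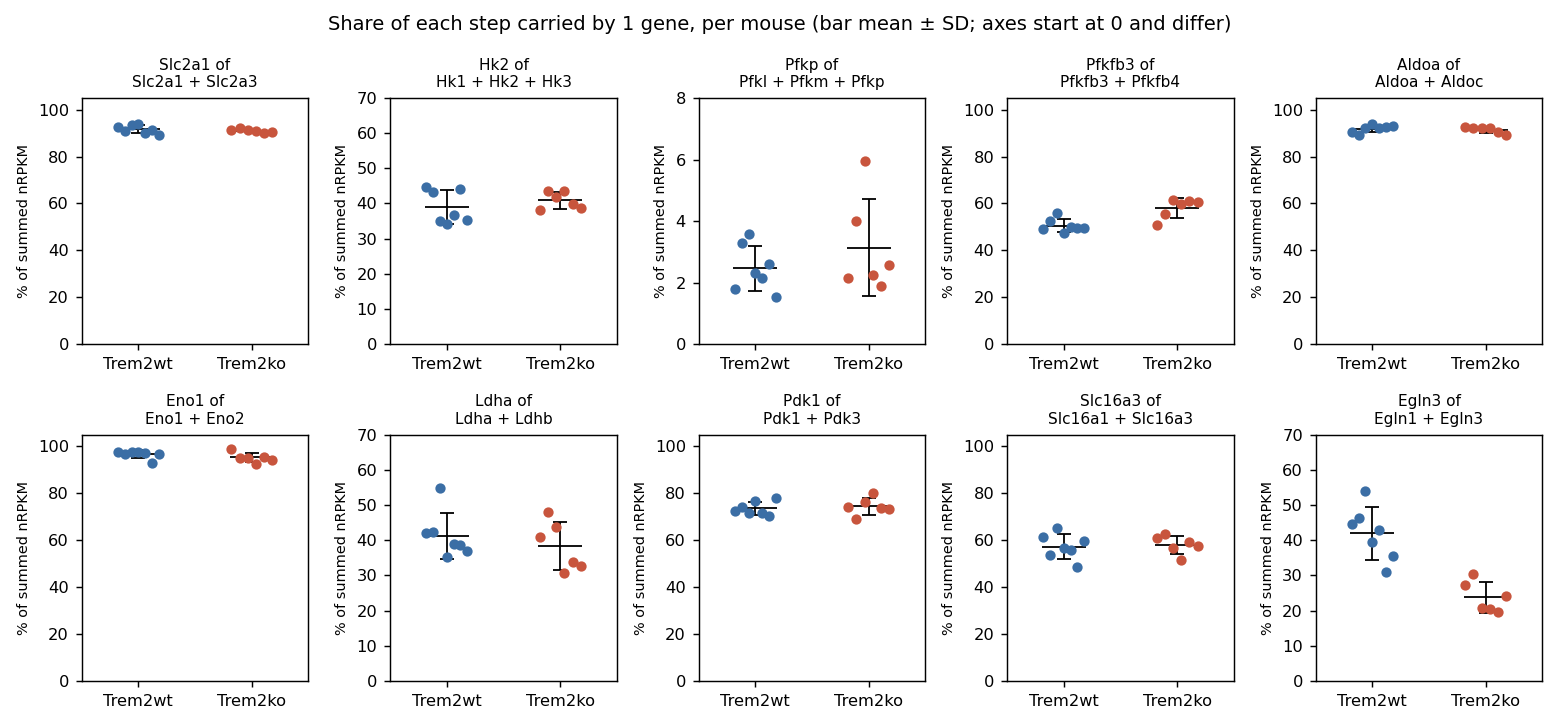
Share, in percent, of the summed nRPKM of each isozyme or paralog group carried by 1 gene, per mouse, with the mean ± SD of each genotype. Egln3 falls from 42.0% to 23.8% without overlap and Pfkfb3 moves from 50.6% to 58.2% with overlap. The other 8 shares tested also overlap and have adjusted p of at least 0.656 (exact permutation test). Of the hexokinases only the Hk2 share was tested, and of the phosphofructokinases only the Pfkp share.

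The lower part of glycolysis, which yields ATP, held 6 of the genes. Pkm, pyruvate kinase of most tissues, was 27.4 to 43.0 nRPKM (median 29.5) in PS2APP;Trem2wt and 19.6 to 31.6 nRPKM (median 23.4) in PS2APP;Trem2ko mice. 4 of 6 PS2APP;Trem2ko mice lay under every PS2APP;Trem2wt mouse. Its log2 fold change was -0.35 ± 0.12 (SE; edgeR, adjusted p = 0.19), and -0.25 without PS2APP;Trem2wt mouse 3. Eno1, the widespread enolase, was 23.2 to 30.8 and 17.9 to 25.4 nRPKM (log2 fold change -0.16). Eno2, the neuronal enolase, was 0.599 to 1.75 nRPKM (median 0.749) and 0.247 to 1.41 nRPKM (median 1.29), with a log2 fold change of 0.35 and an interval of -0.38 to 1.08. The highest Eno2 value came from PS2APP;Trem2wt mouse 6, whose summed neuron markers (11.9 nRPKM) were second highest of 13, and the lowest from PS2APP;Trem2ko mouse 1, whose summed neuron markers (3.95 nRPKM) were lowest. The part of neuronal RNA in the Eno2 level was not tested.

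Gapdh, Pgk1 and Pgam1, each known as an abundant enzyme, were listed at low levels in every mouse. Gapdh was 1.46 to 2.85 and 1.29 to 2.44 nRPKM, Pgk1 0.796 to 1.47 and 0.679 to 1.31 nRPKM, and Pgam1 0.170 to 0.342 and 0.188 to 0.474 nRPKM. Their log2 fold changes were -0.20, -0.22 and 0.27, with standard errors of 0.20, 0.20 and 0.28. The deposited counts hold reads that align uniquely, and these genes share much of their transcript sequence with pseudogenes. Of the 50-base words in annotated transcripts of Gapdh, 58.4% also occur in a transcript of a gene elsewhere in the genome, counting 222 other genes of which 213 are pseudogenes. The values are 68.0% for Pgk1, 41.5% for Pgam1, 49.5% for Eno1 and 46.3% for Bnip3, and 0.0% for Egln3, Hk1, Slc16a1 and Hif1a. Reads are 50 bases long, so a word is what 1 read can hold. The words below were chosen to show the case: the first 2 are held by other genes too, and that of Egln3 by none (GRCm38, in the direction of the transcript).
Gapdh, exon 4, chr6:125162898-125162947, minus strand, held by 84 other genes: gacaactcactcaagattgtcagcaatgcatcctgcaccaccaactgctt
Pgam1, exon 3, chr19:41916679-41916728, plus strand, held by 3 other genes: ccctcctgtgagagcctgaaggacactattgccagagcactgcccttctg
Egln3, exon 1, chr12:54203512-54203561, minus strand, held by 0 other genes: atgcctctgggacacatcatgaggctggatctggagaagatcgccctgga

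Whether shared words lowered the listed levels was not tested, and the place in the order by level is uncertain for Gapdh, Pgk1, Pgam1, Eno1 and Bnip3. Eno1, at a mean of 24.1 nRPKM, shares nearly as many words as Gapdh at 2.01 nRPKM. Of the words of Pdha1 and Pfkp, 16.9% and 15.4% are held by another gene, nearly all of them by one that overlaps it, and whether the counting used the strand is not given in the sources used here.

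**Figure D4:**
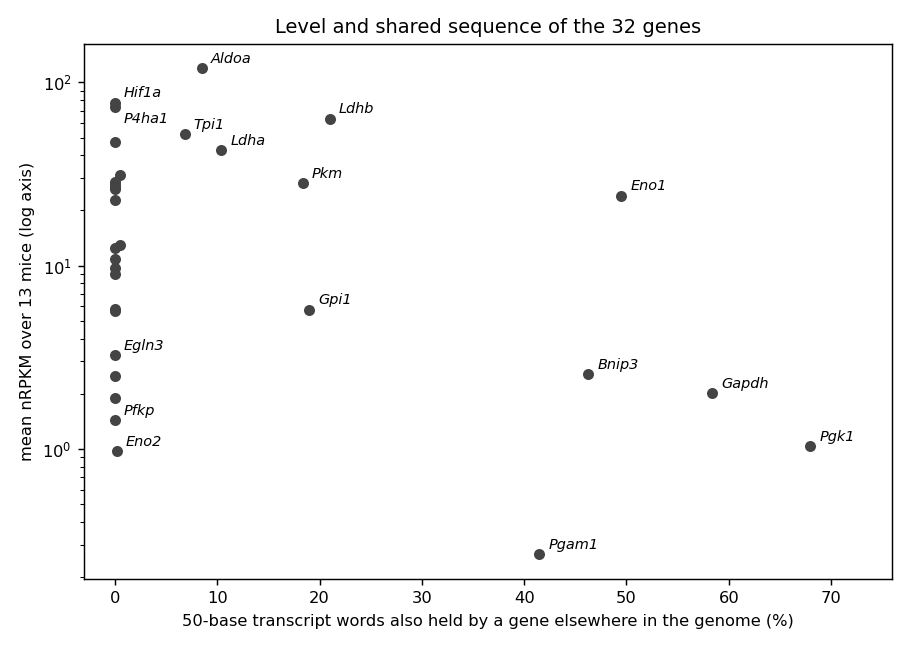
Mean nRPKM over the 13 mice (log axis) against the percentage of a gene's 50-base transcript words that a gene elsewhere in the genome also holds, 1 point per gene. Pgk1 (68.0%), Gapdh (58.4%) and Pgam1 (41.5%) lie at or under 2.01 nRPKM, Eno1 (49.5%) lies at 24.1 nRPKM, and Egln3 (0.0%) at 3.25 nRPKM.

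For the fate of pyruvate, Ldha and Ldhb, whose subunits favor lactate formation and lactate use respectively, were both abundant. Ldhb was 53.5 to 67.3 nRPKM (median 64.1) in PS2APP;Trem2wt and 60.1 to 70.3 nRPKM (median 64.4) in PS2APP;Trem2ko mice. Ldha was 36.5 to 64.9 nRPKM (median 40.4) and 28.6 to 55.3 nRPKM (median 39.6), with a log2 fold change of -0.11 that was 0.00194 without PS2APP;Trem2wt mouse 3. Ldha made up 41.2% ± 6.5 and 38.3% ± 6.9 (SD) of their sum (exact permutation test, p = 0.453, adjusted p = 0.656).

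The carriers that move lactate across the membrane were Slc16a1 (MCT1), which works in both directions, and Slc16a3 (MCT4), the low-affinity exporter of glycolytic cells and a HIF target. Slc16a1 was 8.21 to 12.1 nRPKM (median 9.51) in PS2APP;Trem2wt and 7.08 to 8.98 nRPKM (median 7.98) in PS2APP;Trem2ko mice. 4 of 6 PS2APP;Trem2ko mice lay under every PS2APP;Trem2wt mouse and 4 of 7 PS2APP;Trem2wt mice over every PS2APP;Trem2ko mouse. The log2 fold change was -0.29 ± 0.09 (SE; edgeR, adjusted p = 0.12, and 0.0492 with DESeq2). Slc16a3 was 8.29 to 22.5 nRPKM (median 13.01) and 8.18 to 13.7 nRPKM (median 11.2), with a log2 fold change of -0.27 ± 0.18 (SE) that was -0.10 without PS2APP;Trem2wt mouse 3. Its share of the sum with Slc16a1 was 57.3% ± 5.4 and 58.1% ± 3.8 (SD).

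None of the enzymes that decide whether pyruvate is burned in the mitochondrion passed the test. Pdk1 and Pdk3 are kinases that switch off pyruvate dehydrogenase, and Pdha1 is its E1 alpha subunit. Pdk1 had medians of 27.7 and 27.3 nRPKM, Pdk3 of 10.8 and 9.37 nRPKM and Pdha1 of 12.7 and 12.9 nRPKM. Their log2 fold changes were -0.05, -0.12 and -0.01, with 95% intervals of -0.21 to 0.12, -0.33 to 0.09 and -0.21 to 0.18, so a change of the size of that of Egln3 lay outside each of them.

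Single mice moved many of these genes together. PS2APP;Trem2wt mouse 3, a female with 79883820 counts, had the highest value of all 13 mice for 18 of the 32 genes, Slc2a1, Hk1, Pkm, Ldha, Slc16a3, Hif1a and Egln3 among them, and the median over the 32 genes of its log2 nRPKM minus the mean over mice was 0.38. PS2APP;Trem2ko mouse 4 had the lowest value for 12 of the 32 genes and a median of -0.36. The corresponding medians of the other 11 mice ran from -0.13 to 0.16. PS2APP;Trem2wt mouse 3 ranked 4 of 13 in depth, its oligodendrocyte marker sum was the highest of 13 (38.7 nRPKM), its microglial marker sum was second highest (16291 nRPKM), its sums of lymphocyte (3.25 nRPKM) and red blood cell markers (4.93 nRPKM) were second highest of 13, and its sum of 10 immediate early genes known to respond to tissue dissociation ranked 4 (352 nRPKM). PS2APP;Trem2ko mouse 4 had the lowest oligodendrocyte marker sum of 13 (22.4 nRPKM), ranked 3 for pericyte and endothelial markers, and 4 for astrocyte, lymphocyte and neuron markers. PS2APP;Trem2wt mouse 2, with the second highest oligodendrocyte sum (36.8 nRPKM), had a median over the 32 genes of -0.01. That of PS2APP;Trem2wt mouse 7, with the second lowest sum (24.5 nRPKM), was 0.01. The part of other cell types or dissociation in the values of PS2APP;Trem2wt mouse 3 and PS2APP;Trem2ko mouse 4 was not tested. Leaving out PS2APP;Trem2wt mouse 3 changed no call among the 32 genes, and Egln3 was then at -1.25 (edgeR, adjusted p = 0.0134). Without PS2APP;Trem2ko mouse 4 the calls were also the same, with Egln3 at -1.40 (edgeR, adjusted p = 0.028).

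**Figure D5:**
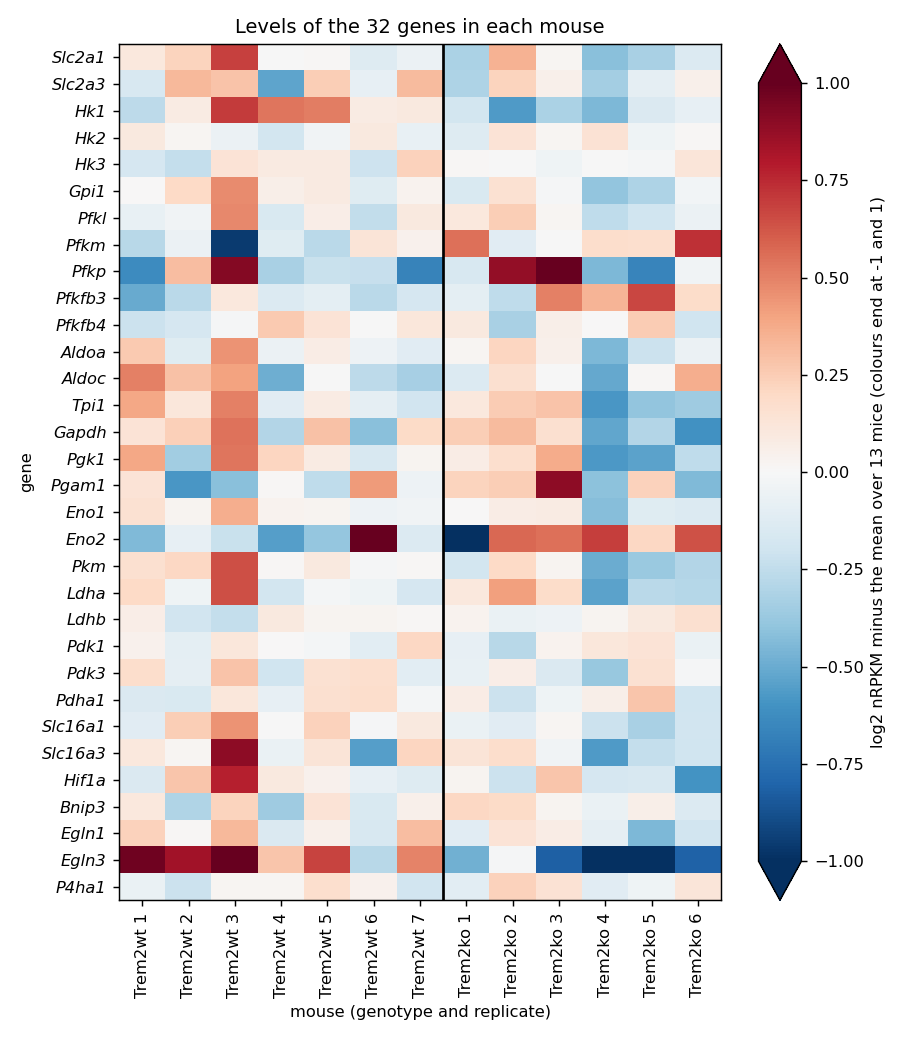
Log2 nRPKM of the 32 genes in each of the 13 mice, minus the gene's mean over mice (colours end at -1 and 1). PS2APP;Trem2wt mouse 3 is highest for 18 genes and PS2APP;Trem2ko mouse 4 lowest for 12, and the row of Egln3 separates the genotypes except for PS2APP;Trem2wt mouse 6 and PS2APP;Trem2ko mouse 2.

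Related genes of the pathway were counted in 8 lists with 148 genes, of which 130 were tested. The lists were written with earlier results of these data known. None passed the threshold in either direction among 15 other glycolytic isozymes and bypass enzymes, 9 other glucose and monocarboxylate carriers, 11 genes of the pyruvate dehydrogenase complex and mitochondrial pyruvate entry, 8 of the pentose phosphate pathway, 16 of the tricarboxylic acid cycle and 14 other HIF pathway components (edgeR). With an unadjusted p up to 0.05, these lists held 0 lower and 2 higher, 3 and 0, 1 and 0, 0 and 0, 0 and 0, and 1 and 0 genes in the same order, beside 7.56% lower and 7.29% higher of all genes tested. With DESeq2, 1 gene each passed in the first (Pfkfb2), the third (Pdpr) and the last list (Arnt2), beside 526 lower and 325 higher of all 17086 genes. The medians of their log2 fold changes lay between -0.12 (carriers) and 0.02 (isozymes).

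The gene with the smallest p in each of these lists is given by its value. Pfkfb2, another maker of fructose 2,6-bisphosphate, had a log2 fold change of 0.60 ± 0.19 (SE; edgeR, adjusted p = 0.14), and Slc16a7, the high-affinity carrier MCT2, of -0.30 ± 0.10 (adjusted p = 0.17). Pdpr, a regulator of pyruvate dehydrogenase phosphatase, had -0.44 ± 0.13 (edgeR, adjusted p = 0.11), and Arnt2, a constant partner of the HIF α subunits, -1.04 ± 0.30 (adjusted p = 0.093). G6pdx, the entry enzyme of the pentose phosphate pathway, and Idh3b, of the tricarboxylic acid cycle, were at -0.14 and 0.19 (edgeR, adjusted p = 0.40 and 0.36).

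Among 38 other HIF target genes tested, 2 fell and none rose, beside 1.53% and 0.503% of all genes tested. This list, like the others, was written with earlier results of these data known, so the counts do not test it as a set. With an unadjusted p up to 0.05 there were 8 lower and 0 higher, beside 7.56% and 7.29% of all genes. Bhlhe40, a transcriptional repressor induced by low oxygen and many other signals, was 8.16 to 23.4 nRPKM (median 12.3) in PS2APP;Trem2wt and 1.06 to 3.91 nRPKM (median 2.10) in PS2APP;Trem2ko mice, with a log2 fold change of -2.58 ± 0.30 (SE; edgeR, adjusted p = 0.00014). Lox, lysyl oxidase, which crosslinks collagen, was 3.15 to 9.82 nRPKM (median 4.75) and 1.18 to 1.97 nRPKM (median 1.46), with a log2 fold change of -1.86 ± 0.23 (SE; edgeR, adjusted p = 0.000247). The genotypes did not overlap for either gene, as for 1.22% of all genes with PS2APP;Trem2ko lower, and both calls held without each mouse in turn. The median log2 fold change over the 38 genes was -0.04, with 22 negative and 16 positive, so most of the list lay near 0 while Egln3, Bhlhe40 and Lox lay far below it.

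Of 19 regulators of glycolysis around mTOR, MYC and AMPK, 1 fell, beside 1.53% of all genes tested. Arrdc4, an arrestin-domain relative of Txnip that is turned on by the glucose-sensing factors Mlx and Mlxip and lowers glucose uptake, was 8.97 to 14.1 nRPKM (median 10.2) in PS2APP;Trem2wt and 6.18 to 7.63 nRPKM (median 6.60) in PS2APP;Trem2ko mice, without overlap, which held for 1.22% of all genes in this direction. The log2 fold change was -0.62 ± 0.10 (SE; edgeR, adjusted p = 0.0035), and without each mouse in turn it was -0.65 to -0.53, past the threshold each time.

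The promoters of most of the 32 genes hold a feature that the choice of genes did not use directly. HIF targets were known when the choice was made, so the share given here describes the set and does not test it. The core of the HIF binding element, ACGTG or GCGTG on either strand, occurs in a window from 250 bases before to 50 after a RefSeq transcript start (GRCm38.p6) for 28 of the 31 genes with a window, 90.3%, beside 46.7% of all 27025 genes with one. Gpi1, Tpi1 and Eno2 have no match, and Slc2a3 has no window. Member windows also hold more CG dinucleotides, a median of 20.5 against 7, and the core contains CG. A palindromic CACGTG gives a match on both strands. The matches below, 1 for Egln3 and 1 for a gene of each main step, are shown to set side by side what lies before the gene that fell and before genes that did not pass the test. The core is in capitals, and its first base is counted from the transcript start at 0.
Egln3, chr12:54204089-54204113, minus strand, core from -229: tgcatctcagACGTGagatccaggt
Slc2a1, chr4:119108699-119108723, plus strand, core from -36: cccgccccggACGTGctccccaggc
Hk1, chr10:62340400-62340424, minus strand, core from 7: cgcgctccttACGTGgggaacgtgc
Pfkfb3, chr2:11553975-11553999, minus strand, core from -60: ccgcgccgtgACGTGccaagctgtg
Pgk1, chrX:106186940-106186964, plus strand, core from -150: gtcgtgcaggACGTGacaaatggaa
Ldha, chr7:46845747-46845771, plus strand, core from -47: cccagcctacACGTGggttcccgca
Slc16a3, chr11:120949030-120949054, plus strand, core from -27: ggcagcggtgACGTGcgcgggggac

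Egln3 has 1 match in its window, Pfkfb3 4, Hk1 5 and Ldha 7, the most of the 31 genes. The matches of Ldha and Pfkfb3 include palindromic CACGTG sites counted on both strands. Whether the number of matches goes with the fold change was not tested. A match describes these letters and does not show that HIF binds there, and the response element of a gene can lie outside such a window.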

How the data were processed

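RNA of sorted myeloid cells from 13 mice was sequenced by the authors as single-end reads from SMART-seq v4 libraries. Adapters, low-quality and rRNA reads were removed and GSNAP was used for alignment to GRCm38, per the study's methods and the submitters' processing notes. The deposited file of each mouse holds, for every gene model, a count of reads aligning uniquely, without normalization, and nRPKM, an RPKM value the authors adjusted by size factors. The annotation used for counting is not given in the sources used here. Symbols and coordinates were taken from GENCODE M21 by Ensembl identifier.

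Groups follow the genotype labels. Counts were tested with edgeR 4.0.16 in R 4.3.3 (filterByExpr, TMM, glmQLFit and glmQLFTest, no covariate), with Benjamini-Hochberg adjustment over 17086 genes and a threshold of 0.05. SE was obtained from the log2 fold change and its F statistic. The common biological coefficient of variation was 0.299. Levels are nRPKM as deposited. Isozyme shares are percentages of summed nRPKM, compared by two-sided exact permutation tests over mice in Python 3.11.15. Both tests were first tested on simulated data. In the alternatives, the tool was voom+limma (limma 3.58.1) or DESeq2 1.42.0, scaling was RLE, the filter was absent or 10 counts in 6 mice, sex entered the design, males were left out, limma was run on log2(nRPKM + 0.1) or log2(nRPKM + 1), counts were thinned, a 2-fold minimum was set, and each mouse was left out.

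The genes named are the 32 members, Trem2 and, per pathway list, the genes called or else the one with the smallest p. Members and lists were chosen with earlier results of these data known.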

Additional observations from a re-analysis of the deposited data

Results flagged for a closer look

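Within each genotype, the highest and the lowest mouse were compared with the rest, and a mouse was set aside for a closer look when its gap to the nearest mouse, as a part of the whole range, exceeded Dixon's 95% critical value (0.568 for 7 mice, 0.625 for 6). 102 groups of values were examined, 12 values were found, and chance alone gives about 1 in 20 groups.

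PS2APP;Trem2wt mouse 3 stood above its genotype for Slc2a1 (42.0 nRPKM, median of the genotype 26.4), Pfkl (65.2, median 45.5), Pkm (43.0, median 29.5), Ldha (64.9, median 40.4), Slc16a3 (22.5, median 13.01), Hif1a (129, median 77.9) and Arrdc4 (14.1, median 10.2), and for the share of Ldha in the sum of Ldha and Ldhb (54.8%, median 39.0%). PS2APP;Trem2wt mouse 6 was high for Eno2 (1.75 nRPKM, median 0.749) and so low for the share of Eno1 in the sum of both enolases (93.0%, median 97.3%). PS2APP;Trem2ko mouse 1 was low for Eno2 (0.247 nRPKM, median 1.29), and PS2APP;Trem2ko mouse 6 high for Hk3 (31.1 nRPKM, median 28.6).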

How the results depend on the processing

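The count of the 32 genes called lower, 1, became 3 with DESeq2 (Egln3, Hk1 and Slc16a1) and was 1 to 2 when each mouse was left out. It was 2 without PS2APP;Trem2wt mouse 1 and without PS2APP;Trem2wt mouse 7, both times through Hk1. The count called higher, 0, became 1 with DESeq2 (Pfkfb3) and was 0 to 1 when each mouse was left out, with 1 without PS2APP;Trem2ko mouse 2. Over all genes DESeq2 called 526 lower and 325 higher, against 262 and 86. No filter gave 53 higher, females only 173 lower, and leaving out each mouse 42 to 107 higher. The difference in the Egln3 share was -17.8 percentage points in females only, where the exact permutation p of 0.00794 is the smallest that 5 against 5 mice can give (adjusted p = 0.0794), and -20.0 to -16.2 without each mouse. That in the Pfkfb3 share was 7.19 percentage points in females only (adjusted p = 0.159, exact permutation test) and 6.98 to 9.12 without each mouse. Leaving out 1 mouse also turned the sign of some differences near 0, with ranges of -0.61 to 2.15 percentage points for the Slc16a3 share and -0.20 to 1.97 for the Pdk1 share, and of the log2 fold change -0.029 to 0.050 for Hk3, -0.11 to 0.033 for Pfkl, -0.089 to 0.025 for Pfkfb4, -0.14 to 0.031 for Aldoc, -0.22 to 0.00194 for Ldha, -0.076 to 0.00246 for Pdk1 and -0.074 to 0.028 for Pdha1. The cause was not tested.

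Thinning to the smallest library kept the call of Egln3. Of the 32 genes Pgam1 had the fewest counts, 12 in 1 mouse, and the 95% interval of its log2 fold change ran from -0.33 to 0.86. With 3 males no effect within males was tested. No paired analysis was possible because the labels do not say which mice belong together: the study's methods state that mice of both genotypes were generally processed in pairs, and the mouse numbers used here do not carry those pairs.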
